A study of Mus musculus with 13 samples.

Results

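The 41 genes described here encode the enzymes and scaffolds that detect broken or modified DNA in mouse cells and repair it. They were taken by symbol from a list of DNA damage signalling and repair genes, and all 41 were found among the 34857 genes of the deposited tables. Their RNA was measured in Neuro2a, an established line from a mouse neuroblastoma (a tumour of the sympathetic nervous system), to compare survivors of a cryostorage failure with cells whose storage was never interrupted. All vials held cells in 10% DMSO, a cryoprotectant, and were thawed at 37 °C into the same serum-containing medium. Experimental vials stood in a flask that lost its liquid nitrogen over 10 h, were held for 24 h until they settled at 4 °C, and were frozen again at -80 °C for 72 h before thawing. Control vials stayed in normal cryostorage. Poly(A) RNA was sequenced from 4 experimental and 3 control libraries at passage 1, soon after the stressed cells divided quickly again, and from 3 experimental and 3 control libraries at passage 6, when they looked normal.

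Cells answer a break in both DNA strands through the kinase Atm, and stretches of single-stranded DNA through the kinase Atr, which pass the signal to the checkpoint kinases Chek2 and Chek1. Breaks are rejoined directly by end joining, or copied from the sister chromatid by homologous recombination. Small base lesions are handled by base excision repair, bulky lesions by nucleotide excision repair, crosslinks by the Fanconi anaemia proteins and copying errors by mismatch repair. Most of this pathway is regulated by protein modification and recruitment to damaged DNA, which poly(A) RNA does not measure.

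The values are FPKM, sequenced fragments divided by transcript length and library size, so levels of different genes can be compared per length. Totals lay between 315034 and 354288 FPKM per library, and 12014 to 12467 genes reached 1 FPKM. The number of reads behind a value is not known, so errors were taken from replicate libraries. Since no label states that replicates came from separate vials or flasks, p-values reflect variation among these libraries alone, and that variation may be technical. Of 16 neuroblastoma markers, 13 were tested at each passage. Chgb, Chga, Hand2 and Phox2a had at least 39.7 FPKM in every library, while Nefl and Nefm were listed at 0 in some libraries. Transcripts of other tissues were present in some libraries, and their sums are given after the comparisons. At passage 1 control library 1 and experimental library 4 stood apart by their few cartilage transcripts, and at passage 6 experimental libraries 2 and 3 by liver and myelin transcripts. Experimental library 3 of passage 1 had the lowest total FPKM and, at 8.04 FPKM, the lowest sum of colon markers of that passage. It is in neither of these pairs and was left out only on its own. That fit called 6 of the 41 genes at passage 1. For the 41 genes, calls that end without either pair of libraries are marked as such.

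All 41 genes were expressed, and all passed the filter of at least 1 FPKM in at least 3 libraries at both passages. Over the 13 libraries Parp1, the polymerase that marks strand breaks with poly(ADP-ribose), had the highest mean level at 49.95 FPKM (37.4 to 61.5 FPKM). Apex1, the endonuclease that cuts at sites that have lost their base, followed at 43.2 FPKM (25.2 to 64.2 FPKM), and Xrcc6, the Ku70 subunit that binds DNA ends, at 26.1 FPKM (18.9 to 33.9 FPKM). The range of Apex1 overlapped the ranges of both others, while every Parp1 value lay above every Xrcc6 value. The lowest means were those of Palb2, the bridge between Brca1 and Brca2, at 1.37 FPKM and of Brca2, a mediator of homologous recombination, at 1.84 FPKM. For 20 genes the mean was under 5 FPKM, and 4 genes (Palb2, Rad51c, Xrcc4 and Xpa) dropped under 1 FPKM in at least 1 library. At these low levels a change of the logarithm of FPKM + 1 understates the change of the gene.

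Stretches before the start are shown for the 4 genes that passed the test at either passage and had at least 200 bases free of exons there. RefSeq promoters of 300 bases (250 before the start to 50 after it, GRCm38.p6) were available for 33 of the 41 genes. CCAAT, the letters bound by the factor NF-Y, was found on either strand in 19 of these 33 promoters (57.6%), against 37.9% of all 27025 promoters of the table. The letters TTTGAA, known from promoters of cell cycle genes, were in 2 of 33 (6.06%) against 18.1% of all, and the E2F letters TTTCGCGC or TTTGGCGC were in 1 of 33 (3.03%) against 0.833% of all, both counted on either strand. The matches did not overlap each other in the stretches printed. The lines give each gene's strand, 5′ to 3′, with matches to the searched letters in capitals (CCAAT or its reverse complement, and in Ercc5 also the reverse complement of TTTGAA). Only bases before the first exon are printed. They are Chek2 (chr5:110839778-110839978, plus strand), Ercc5 (chr1:44147494-44147743, plus strand), Mdc1 (chr17:35841248-35841497, plus strand) and Ogg1 (chr6:113326748-113326971, plus strand).
Chek2: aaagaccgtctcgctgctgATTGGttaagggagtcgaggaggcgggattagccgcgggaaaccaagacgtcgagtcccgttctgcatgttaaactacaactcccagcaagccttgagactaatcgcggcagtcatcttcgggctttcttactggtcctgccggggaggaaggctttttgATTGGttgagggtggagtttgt
Ercc5: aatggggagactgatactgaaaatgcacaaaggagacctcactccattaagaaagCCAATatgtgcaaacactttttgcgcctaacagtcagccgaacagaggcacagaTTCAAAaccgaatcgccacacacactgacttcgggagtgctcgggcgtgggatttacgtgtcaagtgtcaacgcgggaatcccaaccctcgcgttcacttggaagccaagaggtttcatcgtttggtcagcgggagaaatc
Mdc1: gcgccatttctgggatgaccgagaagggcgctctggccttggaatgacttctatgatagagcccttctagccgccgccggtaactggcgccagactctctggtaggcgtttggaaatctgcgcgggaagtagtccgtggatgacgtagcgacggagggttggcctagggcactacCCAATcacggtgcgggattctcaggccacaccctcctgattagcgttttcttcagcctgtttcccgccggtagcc
Ogg1: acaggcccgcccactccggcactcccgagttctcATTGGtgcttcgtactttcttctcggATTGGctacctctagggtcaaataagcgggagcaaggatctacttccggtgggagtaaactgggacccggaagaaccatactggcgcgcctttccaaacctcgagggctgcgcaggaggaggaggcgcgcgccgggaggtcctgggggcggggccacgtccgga
These 4 genes did not change alike. Chek2 was lower at both passages, Ercc5 was called lower at passage 1 and Mdc1 at passage 6, and Ogg1 was called higher at passage 6. A match to these letters is a description of the sequence and says nothing about binding in these cells.

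At passage 1 most of the repair genes were slightly lower in experimental cells, and few differences passed the test. Of the 41 genes, 7 fell (Rad50, Rad51c, Ercc5, Fanci, Prkdc, Chek2 and Ercc3), 1 rose (Ercc1) and 33 were not called. A gene is called where limma's two-sided test on log2(FPKM + 1) gave p under 0.05 after Benjamini-Hochberg adjustment over all genes tested. The 8 genes are 19.5% of the 41, while 30.4% of all 12469 genes were called in the same comparison. Genes called lower made up 17.1% of the 41 and 18.9% of all genes, and genes called higher 2.44% and 11.5%. The number called among the repair genes was thus not above the background. Of all calls 37.8% were higher with FPKM as deposited, and 50.2%, 51.6% and 48.8% with quantile normalization, median-of-ratios scaling and equal totals. Among the 41 genes the calls were 1 higher and 5 lower, 1 higher and 4 lower, and 1 higher and 5 lower under these scalings.

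The median log2 change of the 41 genes at passage 1 was -0.14, against -0.05 over all genes, and quantile normalization, median-of-ratios scaling and equal totals gave medians of -0.08, -0.10 and -0.11 for the 41 genes. The change was below 0 for 34 of the 41 genes and for 59.9% of all genes. No change reached 0.5 on the log2 scale in either direction, a size that 7.68% of all genes reached. Changes ran from -0.44 for Rad51c to 0.29 for Ercc1. Over the alternatives the change of Rad51c ran as low as -0.60. In 16 genes every experimental library lay below every control, and in 1 gene every experimental library lay above, while 26.9% and 15.8% of all genes did so. In bulk RNA, fewer cells that express a gene and less of its RNA per cell cannot be told apart.

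**Figure D1:**
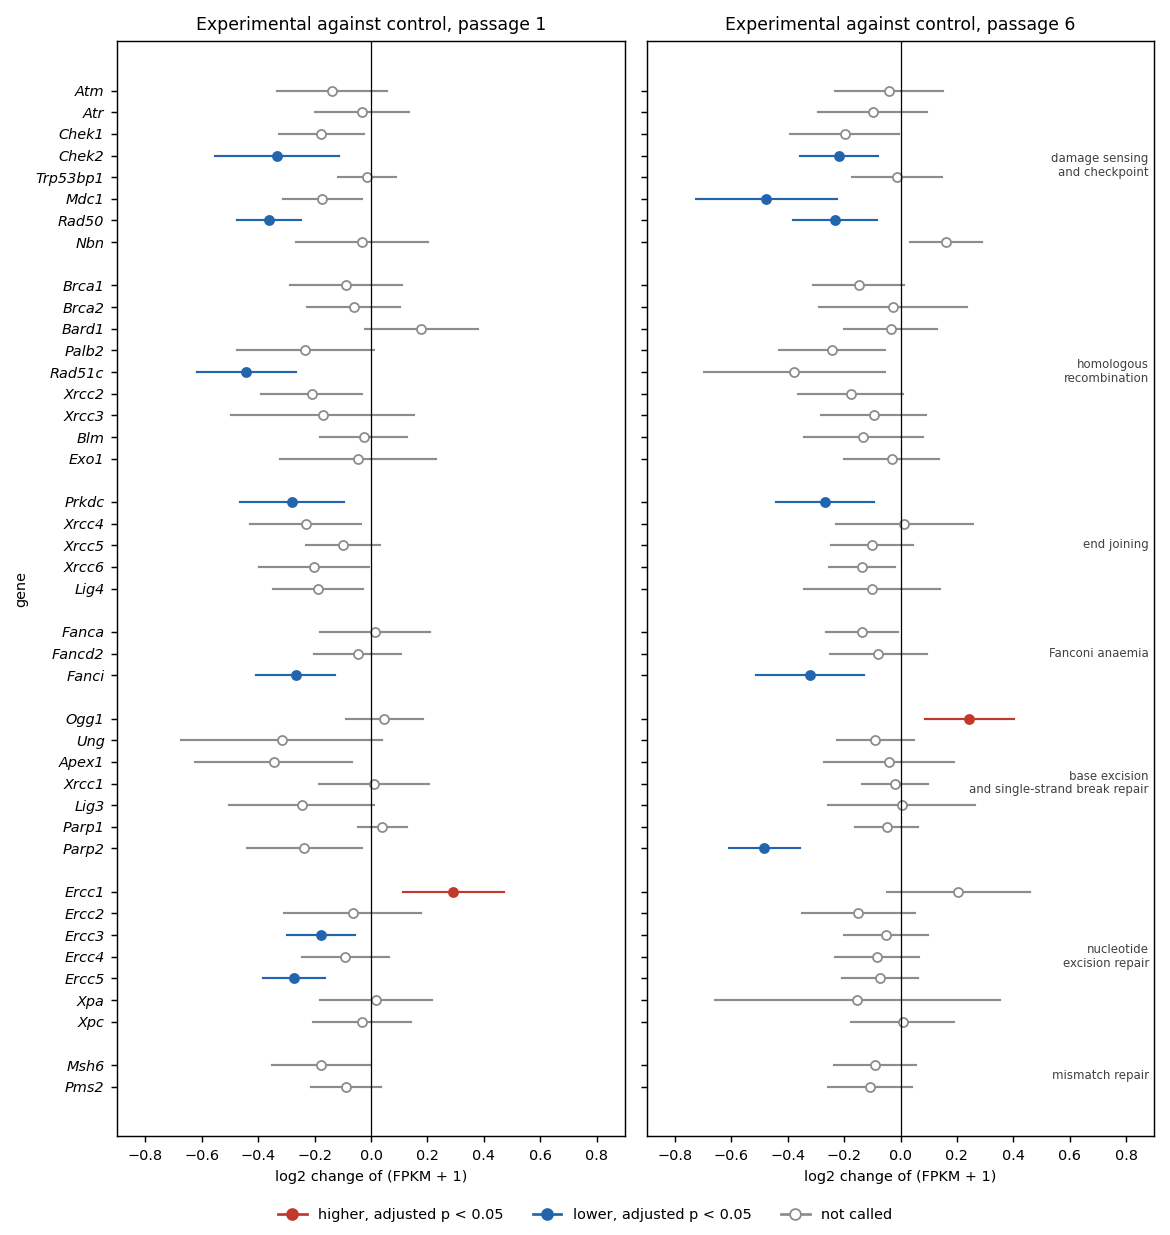
Change of each of the 41 repair genes in experimental against control libraries, as the log2 difference of (FPKM + 1), at passage 1 (left) and passage 6 (right), with 95% confidence intervals from limma and genes grouped by role. Filled points passed the test (8 genes at passage 1, 7 at passage 6), and most points lie left of 0 at both passages.

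Among the damage sensing and checkpoint genes, 2 of 8 fell at passage 1. Rad50 (ENSMUSG00000020380, chromosome 11, 53649519 to 53707319, minus strand, GRCm38) encodes the ATPase that holds DNA ends together in the complex with Mre11 and Nbn. It had 12.2, 12.7, 13.01 and 13.3 FPKM in experimental libraries, against 17.4, 16.6 and 16.1 FPKM in controls. The groups lay well apart, and Rad50 fell by 0.36 on the log2 scale (95% confidence interval of the change -0.47 to -0.25, limma adjusted p = 0.00180). Its call held under all 20 alternative settings, including the one without control 1 and experimental library 4.

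Chek2 (chromosome 5, 110839979 to 110874145, plus strand), the checkpoint kinase activated by Atm, had 3.40, 3.25, 3.75 and 4.56 FPKM in experimental libraries, against 5.11, 5.08 and 4.63 FPKM in controls. Every experimental library was below every control, with library 4 close to the lowest control. Chek2 fell by 0.33 on the log2 scale (95% confidence interval of the change -0.55 to -0.11, limma adjusted p = 0.0324). The call was lost when control 1, 2 or 3 was left out (adjusted p = 0.108, 0.105 and 0.0659), and likewise experimental library 1 or 2 (0.0673 and 0.0549). It also ended with median-of-ratios scaling (0.0554), without a filter (0.0910) and without control 1 and experimental library 4 together (0.05004).

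Atm, the kinase at the head of the response to breaks, had 2.03, 2.78, 2.13 and 2.25 FPKM in experimental libraries, against 2.67, 2.57 and 2.62 FPKM in controls. Experimental library 2 was above all controls and the other 3 were below them. Atr, its relative that responds to stalled replication forks, had 1.63, 1.70, 2.02 and 1.76 FPKM in experimental libraries, against 1.88, 1.89 and 1.75 FPKM in controls, with the groups overlapping. Trp53bp1, the scaffold that favours end joining over resection, had 7.43, 7.56, 7.21 and 7.62 FPKM in experimental libraries, against 7.58, 7.63 and 7.41 FPKM in controls, and these ranges overlapped as well. The adjusted p was 0.248 for Atm, 0.764 for Atr and 0.823 for Trp53bp1 (limma). The sign of the small changes of Atr and Trp53bp1 flipped under at least 2 of the 3 scalings. The checkpoint kinase gene Chek1, the scaffold gene Mdc1 and Nbn, which brings Rad50 to breaks, had log2 changes of -0.18, -0.17 and -0.03 that were not called.

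Of the 9 homologous recombination genes, 1 fell at passage 1. Rad51c (chromosome 11, 87376645 to 87404954, minus strand), which acts in strand exchange and in the resolution of recombination intermediates, had 2.08, 1.76, 2.33 and 1.89 FPKM in experimental libraries, against 3.08, 3.11 and 3.09 FPKM in controls. The controls were close together, and all 4 experimental libraries lay below them. Rad51c fell by 0.44 on the log2 scale (95% confidence interval of the change -0.62 to -0.27, limma adjusted p = 0.00461). The ratio of mean FPKM, without the added 1, was 0.653, against a fold of 0.736 on the tested scale. The call ended only without control 1 and experimental library 4 (adjusted p = 0.0637), among the 19 alternatives run on it.

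Brca1, the ubiquitin ligase that promotes resection and recombination, had 8.68, 9.84, 7.44 and 8.20 FPKM in experimental libraries, against 8.54, 9.38 and 9.42 FPKM in controls (adjusted p = 0.459, limma). Experimental library 2 was the highest of the passage and library 3 the lowest. Brca2 had 1.71, 1.92, 1.72 and 1.72 FPKM in experimental libraries, against 1.96, 2.02 and 1.69 FPKM in controls (adjusted p = 0.537, limma), and the groups overlapped. The other 6 genes of this role, Bard1, Palb2, Xrcc2, Xrcc3, Blm and Exo1, had log2 changes between -0.23 (Palb2) and 0.18 (Bard1), and none was called.

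Of the 5 end joining genes, 1 fell at passage 1. Prkdc (chromosome 16, 15637866 to 15842235, plus strand) encodes the catalytic subunit of DNA-dependent protein kinase, which Ku recruits to DNA ends. It had 1.39, 1.68, 1.57 and 1.75 FPKM in experimental libraries, against 2.01, 2.40 and 2.04 FPKM in controls. The groups did not overlap, and Prkdc fell by 0.28 on the log2 scale (95% confidence interval of the change -0.46 to -0.09, limma adjusted p = 0.0324). The call ended under each of the 3 scalings (adjusted p = 0.0538 to 0.115), and without control 1, 2 or 3 (0.0676, 0.133 and 0.0771). It also ended without experimental library 1 or 3 (0.0578 and 0.0506), and without control 1 and experimental library 4 together (0.0963). Testing without a filter (0.0905) or with the replicate number as a block (0.0663) ended it too. The Ku genes Xrcc5 and Xrcc6, the ligase gene Lig4 and Xrcc4, the gene of its scaffold partner, had log2 changes of -0.10, -0.20, -0.19 and -0.23, all below 0 and none called.

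Among the 3 Fanconi anaemia genes, Fanci fell at passage 1 (chromosome 7, 79391929 to 79450264, plus strand). It encodes the partner of Fancd2 in the clamp that is loaded at crosslinks. It had 3.18, 2.97, 3.01 and 3.00 FPKM in experimental libraries, against 4.17, 3.59 and 3.83 FPKM in controls. The experimental libraries were close together, and all were below the controls. Fanci fell by 0.27 on the log2 scale (95% confidence interval of the change -0.41 to -0.13, limma adjusted p = 0.0133). It was no longer called when control 1 (adjusted p = 0.0655), control 3 (0.0528), or control 1 with experimental library 4 (0.136) was left out. The call of Fanci also ended with the replicate number as a block (0.0665). Fanca and Fancd2 had log2 changes of 0.01 and -0.05 and were not called. Of the exonic bases of Fanci 16.0% overlap Polg on the opposite strand. The library kit marks strand, per the labels, but how strand was used in counting is not given in the sources used here. Polg had 5.96 to 6.29 FPKM in experimental and 6.07 to 6.62 FPKM in control libraries of passage 1, and its part in the result was not tested.

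None of the 7 base excision and single-strand break repair genes was called at passage 1. Parp1 had 59.7, 61.5, 59.2 and 59.5 FPKM in experimental libraries, against 57.7, 57.9 and 59.3 FPKM in controls, with a log2 change of 0.04 (95% confidence interval -0.05 to 0.13). Experimental library 2 was the highest of the passage, and the groups overlapped. Apex1 spread widely, at 54.4, 59.3, 39.9 and 46.4 FPKM in experimental libraries, against 62.9, 64.2 and 62.1 FPKM in controls (adjusted p = 0.0621, limma). All 4 experimental libraries lay below the controls, library 3 furthest. Apex1 made up 33.8% of the difference in the summed FPKM of the 41 genes at passage 1, and its exons overlap those of Pip4p1 on the opposite strand over 61.7% of their length. Ogg1, Ung, Xrcc1, Lig3 and Parp2 had log2 changes between -0.32 (Ung) and 0.05 (Ogg1).

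Nucleotide excision repair genes moved in both directions at passage 1, with 2 of 7 lower and 1 higher. Ercc5 (chromosome 1, 44147744 to 44181260, plus strand), the XPG endonuclease that cuts the damaged strand, had 6.64, 6.28, 6.16 and 6.14 FPKM in experimental libraries, against 7.83, 7.73 and 7.91 FPKM in controls. The groups were clearly separate, and Ercc5 fell by 0.27 on the log2 scale (95% confidence interval of the change -0.38 to -0.16, limma adjusted p = 0.00477). The call ended with the replicate number as a block (adjusted p = 0.0535) and without control 1 and experimental library 4 (0.0731). Ercc3, the XPB helicase gene of the transcription factor TFIIH, had 10.9, 10.7, 10.1 and 10.6 FPKM in experimental libraries, against 11.7, 12.8 and 11.7 FPKM in controls. It fell by 0.18 on the log2 scale (95% confidence interval of the change -0.30 to -0.06, limma adjusted p = 0.0342), and 11 of 20 alternatives ended that call, among them every scaling, each control left out in turn, and control 1 left out with experimental library 4 (adjusted p = 0.147).

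Ercc1 (chromosome 7, 19344778 to 19356524, plus strand) encodes the partner of the nuclease Ercc4. It rose, with 3.65, 3.26, 3.79 and 4.15 FPKM in experimental libraries, against 2.67, 2.80 and 3.06 FPKM in controls. All experimental libraries lay above the controls. Ercc1 rose by 0.29 on the log2 scale (95% confidence interval of the change 0.11 to 0.47, limma adjusted p = 0.0239). It was no longer called when control 1 (adjusted p = 0.0958), control 2 (0.0826), experimental library 4 (0.0559), or control 1 with experimental library 4 (0.182) was left out. The call of Ercc1 also ended without a filter (0.0659) and with the replicate number as a block (0.0887). Ercc1 shares 106 exonic bases with Cd3eap on the opposite strand, which had 8.67 to 11.3 FPKM in experimental and 9.90 to 10.9 FPKM in control libraries. Ercc2, Ercc4, Xpa and Xpc had log2 changes between -0.09 and 0.02. The mismatch repair genes Msh6 and Pms2 had log2 changes of -0.18 and -0.09 and were not called.

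**Figure D2:**
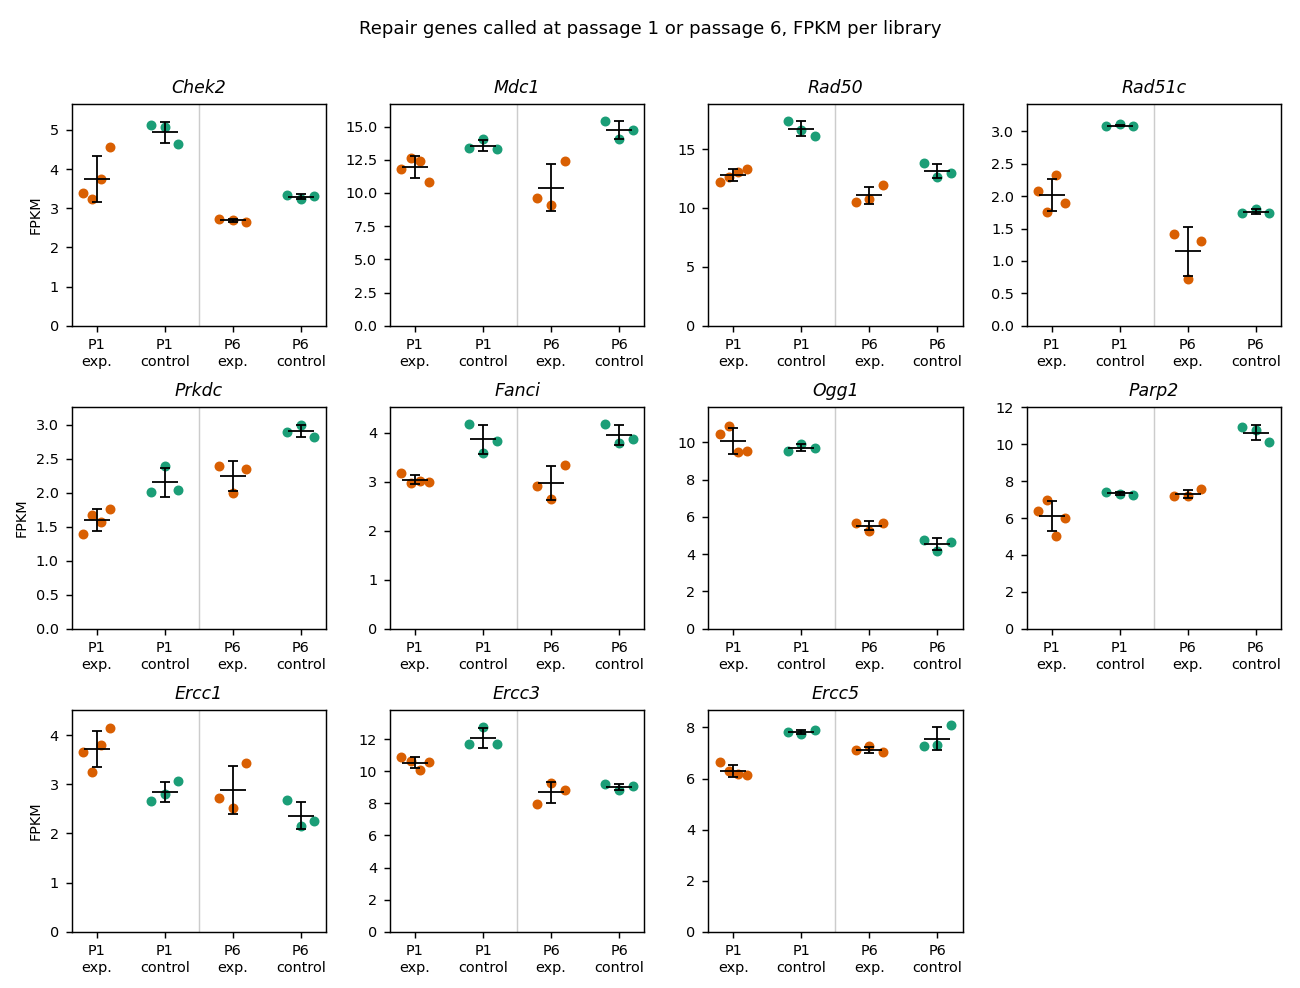
FPKM in each library for the 11 repair genes called at passage 1 or passage 6, with experimental libraries (orange) left of controls (green) at each passage, a bar for the mean and whiskers of 1 SD. The groups of Rad50 do not overlap at either passage, and those of Parp2 lie furthest apart at passage 6.

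At passage 6, when the cells looked normal, most repair genes were again slightly lower in experimental cells. Of the 41 genes, 6 fell (Parp2, Mdc1, Fanci, Chek2, Rad50 and Prkdc), 1 rose (Ogg1) and 34 were not called. The 7 genes are 17.1% of the 41, against 19.8% of all 12458 genes tested. Genes called lower made up 14.6% of the 41 and 10.8% of all genes, and genes called higher 2.44% and 8.98%. The median log2 change was -0.10, against -0.04 over all genes, and the change was below 0 for 35 of the 41 genes and for 57.2% of all genes. In 14 genes every experimental library lay below every control and in 2 above, against 24.3% and 17.4% of all genes. No change reached 0.5 on the log2 scale of the test, which includes the added 1 FPKM, while 5.90% of all genes reached that size. Over the alternatives Parp2 ran as low as -0.53 and Mdc1 as low as -0.60.

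Parp2 (chromosome 14, 50807841 to 50821301, plus strand), the relative of Parp1 that also makes poly(ADP-ribose) at strand breaks, showed the largest change of the 41 genes in this test. It had 7.17, 7.20 and 7.56 FPKM in experimental libraries, against 10.9, 10.8 and 10.2 FPKM in controls. Every control lay well above every experimental library. Parp2 fell by 0.48 on the log2 scale (95% confidence interval of the change -0.61 to -0.36, limma adjusted p = 0.00277), and it was called under all 19 alternatives run on it, including the one without experimental libraries 2 and 3. At passage 1 it had 6.40, 6.96, 5.05 and 6.02 FPKM in experimental libraries, against 7.43, 7.31 and 7.26 FPKM in controls, lower in all 4 but not called (adjusted p = 0.0772, limma). Parp1 stayed close to its controls at passage 6 too, at 37.4, 38.2 and 39.5 FPKM in experimental libraries, against 40.5, 40.5 and 38.3 FPKM in controls (adjusted p = 0.483, limma).

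Ogg1 (chromosome 6, 113326972 to 113335068, plus strand), the glycosylase that removes oxidised guanine, rose at passage 6. It had 5.69, 5.23 and 5.68 FPKM in experimental libraries, against 4.75, 4.15 and 4.66 FPKM in controls, and the groups did not overlap. Ogg1 rose by 0.24 on the log2 scale (95% confidence interval of the change 0.09 to 0.40, limma adjusted p = 0.0439). This call was fragile: it ended when any 1 of the 6 libraries was left out, with adjusted p between 0.0533 and 0.158, and without experimental libraries 2 and 3 together (0.0808). Ogg1 shares 10.6% of its exonic bases with Camk1 on the opposite strand, which had 4.39 to 4.75 FPKM in experimental and 4.11 to 4.18 FPKM in control libraries of passage 6, so that both moved the same way. The part of Camk1 in the result was not tested. The other base excision genes, Ung, Apex1, Xrcc1 and Lig3, had log2 changes between -0.09 (Ung) and 0.004 (Lig3).

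Of the damage sensing and checkpoint genes, 3 of 8 fell at passage 6. Mdc1 (chromosome 17, 35841515 to 35859670, plus strand), the scaffold that binds phosphorylated histone H2AX around breaks, had 9.64, 9.12 and 12.4 FPKM in experimental libraries, against 15.4, 14.03 and 14.7 FPKM in controls. All 3 experimental libraries were lower, library 3 least so. Mdc1 fell by 0.48 on the log2 scale (95% confidence interval of the change -0.72 to -0.23, limma adjusted p = 0.0228). The call ended without control 1, 2 or 3 (adjusted p = 0.0867, 0.0675 and 0.0782) or without experimental library 2 (0.0609), and held without experimental libraries 2 and 3 together.

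Chek2 had 2.72, 2.70 and 2.64 FPKM in experimental libraries of passage 6, against 3.35, 3.23 and 3.30 FPKM in controls, and it fell by 0.22 on the log2 scale (95% confidence interval of the change -0.35 to -0.08, limma adjusted p = 0.0396). Rad50 had 10.5, 10.7 and 11.9 FPKM in experimental libraries, against 13.8, 12.7 and 12.98 FPKM in controls, and it fell by 0.23 on the log2 scale (95% confidence interval of the change -0.38 to -0.08, limma adjusted p = 0.0426). In both genes the groups did not overlap, yet both calls ended without control 1, 2 or 3 (adjusted p = 0.123 to 0.144 for Chek2 and 0.102 to 0.156 for Rad50) and under all 3 scalings (0.0569 to 0.0922 and 0.0524 to 0.0982). They also ended without experimental library 2 (0.0687 and 0.0998), and for Chek2 without library 3 (0.0806) and without libraries 2 and 3 together (0.104).

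Atm had 2.22, 2.09 and 2.59 FPKM in experimental libraries of passage 6, against 2.47, 2.24 and 2.47 FPKM in controls (adjusted p = 0.745, limma). Atr had 1.87, 1.68 and 2.13 FPKM in experimental libraries, against 2.19, 2.07 and 2.01 FPKM in controls (adjusted p = 0.425, limma). Trp53bp1 had 6.67, 7.46 and 7.93 FPKM in experimental libraries, against 7.49, 7.30 and 7.44 FPKM in controls (adjusted p = 0.911, limma). In all 3 genes the groups overlapped. Chek1 and Nbn had log2 changes of -0.20 and 0.16 and were not called. Without experimental library 1, Chek1 was called lower and Nbn higher. Median-of-ratios scaling, quantile normalization and array weights also made Nbn a higher call. Nbn was thus on the other side of 0 from its complex partner Rad50, at 5.72, 6.08 and 6.12 FPKM in experimental libraries, against 5.10, 5.35 and 5.25 FPKM in controls, with no overlap (adjusted p = 0.0784, limma; its per-library values were chosen after they were seen).

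Prkdc and Fanci were the other genes that fell at passage 6. Prkdc had 2.39, 2.00 and 2.35 FPKM in experimental libraries, against 2.90, 2.99 and 2.82 FPKM in controls, and it fell by 0.27 on the log2 scale (95% confidence interval of the change -0.44 to -0.09, limma adjusted p = 0.0444). Fanci had 2.91, 2.65 and 3.35 FPKM in experimental libraries, against 4.19, 3.797 and 3.88 FPKM in controls, and it fell by 0.32 on the log2 scale (95% confidence interval of the change -0.51 to -0.13, limma adjusted p = 0.0342). Neither gene's groups overlapped. Both calls ended without any 1 of the controls (adjusted p = 0.119 to 0.154 for Prkdc and 0.0939 to 0.126 for Fanci) and without experimental library 2 (0.0852 and 0.0771). That of Fanci ended with equal totals (0.0527), and that of Prkdc under all 3 scalings (0.0501 to 0.0822), without experimental library 3 (0.0697) and without experimental libraries 2 and 3 together (0.124). Fanci's opposite-strand neighbour Polg was lower as well, at 8.61 to 8.78 FPKM in experimental and 9.99 to 10.7 FPKM in control libraries.

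No homologous recombination, nucleotide excision or mismatch repair gene of the 41 was called at passage 6. Brca1 had 9.17, 8.81 and 10.2 FPKM in experimental libraries, against 9.89, 10.9 and 10.8 FPKM in controls (adjusted p = 0.165, limma). Brca2 had 1.61, 1.59 and 2.31 FPKM in experimental libraries, against 1.74, 1.98 and 1.90 FPKM in controls (adjusted p = 0.884, limma), with experimental library 3 above every control and the other 2 below. Rad51c, called at passage 1, had a log2 change of -0.38 (adjusted p = 0.0932, limma), with 1.42, 0.716 and 1.31 FPKM in experimental libraries, against 1.74, 1.80 and 1.73 FPKM in controls. The other recombination genes (Bard1, Palb2, Xrcc2, Xrcc3, Blm and Exo1) had log2 changes between -0.24 and -0.03. The nucleotide excision genes lay between -0.15 (Xpa) and 0.21 (Ercc1), Msh6 and Pms2 at -0.09 and -0.11, and Xrcc4, Xrcc5, Xrcc6 and Lig4 between -0.14 and 0.01. Fanca and Fancd2 were at -0.14 and -0.08.

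Chek2, Rad50, Prkdc and Fanci were called lower at both passages, and no gene of the 41 was called higher at both. Without the libraries that stood apart, Rad50 alone of the 4 was called at both. These 4 are 9.76% of the 41 genes, while 3.99% of the 11908 genes tested at both passages were called lower and 3.12% higher at both. The passages have separate experimental and control libraries. In all, 11 genes were called at 1 passage or both and 30 at neither. The change was below 0 at both passages for 30 of the 41 genes, against 39.2% of all genes. Across the 41 genes the changes at passage 6 and passage 1 had a Pearson r of 0.57, and across all genes 0.47. These describe genes, which share libraries and are not independent.

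**Figure D3:**
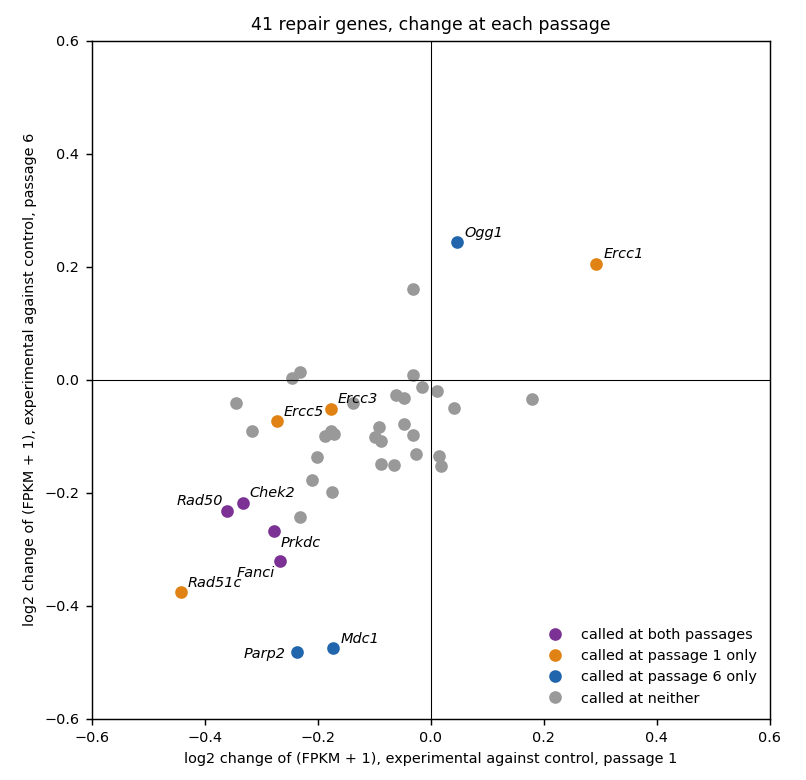
Log2 change of (FPKM + 1) of each of the 41 repair genes in experimental against control libraries, at passage 1 (x axis) and passage 6 (y axis), coloured by the passage at which the gene was called. Chek2, Rad50, Prkdc and Fanci, called at both, lie in the lower left with Rad51c, Parp2 and Mdc1.

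The difference of the changes between the passages was tested directly, as the change at passage 6 minus that at passage 1. None of the 41 genes was called by limma, where 14.7% of all 13019 genes tested were (8.46% higher and 6.27% lower), and 4 genes had an unadjusted p under 0.05. The smallest p belonged to Ercc5, with a difference of 0.20 on the log2 scale (95% confidence interval 0.05 to 0.35, adjusted p = 0.0700). Its change was -0.07 at passage 6 and -0.27 at passage 1. Mdc1 followed with a difference of -0.30 (-0.57 to -0.03, adjusted p = 0.123) and Ogg1 with 0.20 (0.01 to 0.39, adjusted p = 0.146). A gene called at 1 passage and not at the other was therefore not shown to differ between them. Leaving out single libraries gave 1 call in 5 of 13 cases: Ercc5 without experimental library 1 of passage 1 or control 3 of passage 6, Nbn without experimental library 2 and Parp2 without experimental library 3 of passage 1, and Mdc1 without experimental library 3 of passage 6. Mdc1 was also called without experimental libraries 2 and 3 of passage 6.

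The level of the repair genes as a group was summarised by their summed FPKM. At passage 1 the 41 genes together had 367, 386, 339 and 357 FPKM in experimental libraries, against 399, 405 and 399 FPKM in controls. The mean of the experimental libraries was 90.4% of that of controls. At passage 6 they came to 280.1, 272 and 284 FPKM in experimental libraries, against 306, 302 and 302 FPKM in controls, or 91.9%. These sums were not scaled for the total FPKM of a library. Totals were 315034 to 329736 FPKM in experimental and 331495 to 336105 FPKM in control libraries of passage 1. At passage 6 the totals were 334839 to 354288 FPKM in experimental and 348286 to 349541 FPKM in control libraries. The experimental libraries of passage 1 differed more among themselves than the controls did. Library 3 had the lowest value of the 4 for 22 of the 41 genes, and library 2 the highest for 22. The median SD of a gene's log2(FPKM + 1) was 0.113 over experimental and 0.0507 over control libraries at passage 1, and 0.102 and 0.0521 at passage 6. Without Apex1 the sums were 299 to 327 FPKM in experimental and 336 to 340.4 FPKM in control libraries of passage 1.

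**Figure D4:**
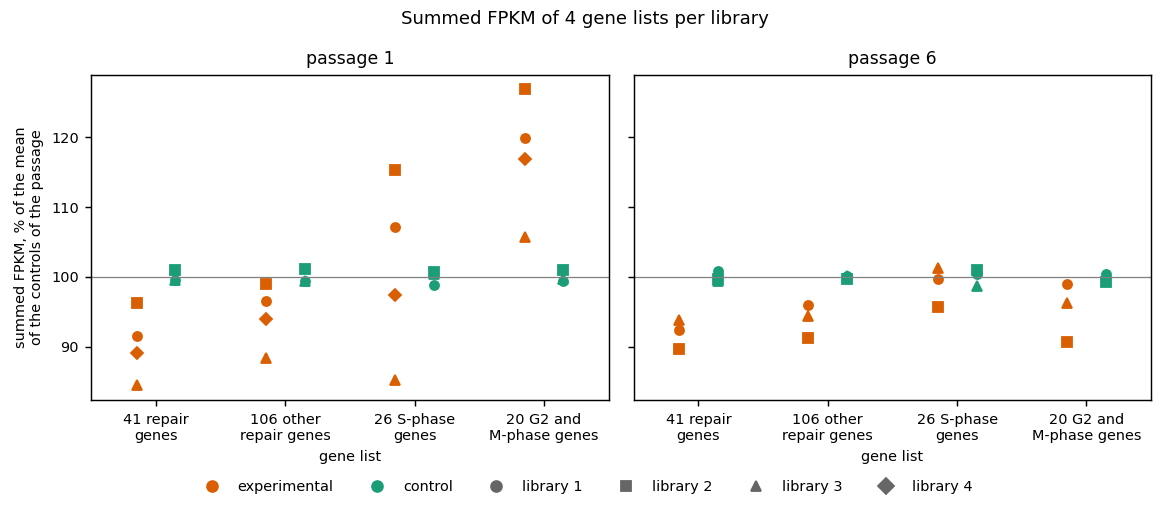
Summed FPKM of the 41 repair genes, 106 other repair genes, 26 S-phase genes and 20 G2 and M-phase genes in each library, as a percent of the mean of the controls of the passage (grey line at 100), with symbols for library numbers. The 41 repair genes sit between 84.5% and 96.3% in experimental libraries of passage 1, below all controls, while the G2 and M-phase genes sit between 106% and 127%.

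A longer list of 106 further repair genes was also slightly lower at the median. At passage 1, 98 were tested, 23 fell and 3 rose (26.5% called, against 30.4% of all genes), with a median log2 change of -0.12. Genes called lower made up 23.5% of those tested and 18.9% of all genes, and genes called higher 3.06% and 11.5%. The genes that fell with the smallest adjusted p were Smug1, a uracil glycosylase gene, at 4.10 ± 0.0881 FPKM in experimental and 5.74 ± 0.381 FPKM in control libraries (mean ± SD, n = 4 and 3; log2 change -0.40, limma adjusted p = 0.00191), and Alkbh2, a demethylase of alkylated bases, at 5.33 ± 0.449 FPKM in experimental and 7.79 ± 0.778 FPKM in control libraries (log2 change -0.47, limma adjusted p = 0.00428). Next were Rmi1, a partner of the helicase Blm, at 2.30 ± 0.164 FPKM in experimental and 3.28 ± 0.235 FPKM in control libraries (log2 change -0.38, limma adjusted p = 0.00575), and Polm, an end joining polymerase gene, at 2.68 ± 0.413 FPKM in experimental and 4.17 ± 0.268 FPKM in control libraries (log2 change -0.49, limma adjusted p = 0.00628). The 3 that rose were Rad23b, the partner of the damage sensor Xpc, at 63.7 ± 2.92 FPKM in experimental and 50.6 ± 1.01 FPKM in control libraries (log2 change 0.33, limma adjusted p = 0.00243), Parg, which removes poly(ADP-ribose), at 9.57 ± 0.237 FPKM in experimental and 8.30 ± 0.297 FPKM in control libraries (log2 change 0.19, limma adjusted p = 0.0203), and Ube2t, the conjugating enzyme of the Fanconi pathway, at 4.23 ± 0.422 FPKM in experimental and 3.34 ± 0.162 FPKM in control libraries (log2 change 0.27, limma adjusted p = 0.0286). Without control 1 and experimental library 4, 3 fell (Smug1, Rmi1 and Faap100) and 1 rose (Rad23b) of 97 tested. Leaving out control 1, 2 or 3 left 16, 10 and 8 lower and 1 higher each, and the replicate block 7 lower and 1 higher.

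At passage 6, 98 of the longer list were tested, 16 fell and none rose in limma (16.3% called, against 19.8% of all genes), with a median of -0.12. All of these calls were lower, and of all genes 10.8% were called lower and 8.98% higher. The smallest adjusted p were those of Eme1, the partner of the nuclease Mus81, at 3.52 ± 0.0627 FPKM in experimental and 5.11 ± 0.0249 FPKM in control libraries (mean ± SD, n = 3 each; log2 change -0.43, limma adjusted p = 0.00371), and Topbp1, the activator of Atr, at 13.7 ± 0.456 FPKM in experimental and 17.0 ± 0.102 FPKM in control libraries (log2 change -0.29, limma adjusted p = 0.00879). Neil1, a glycosylase gene for oxidised bases, was at 1.94 ± 0.327 FPKM in experimental and 3.13 ± 0.167 FPKM in control libraries (log2 change -0.50, limma adjusted p = 0.0139) and Rmi1 at 2.31 ± 0.168 FPKM in experimental and 3.24 ± 0.130 FPKM in control libraries (log2 change -0.36, limma adjusted p = 0.0146). Leaving out control 1, 2 or 3 left 2, 1 and 1 called genes, and leaving out experimental libraries 2 and 3 left 7 lower and 1 higher. Lower at both passages were 7 of the 96 tested at both: Rmi1, Alkbh3, Ercc6, Mre11a, Fignl1, Msh3 and Slx4. Without the libraries that stood apart none of the 7 was called at both. Mre11a, the nuclease in the complex with Rad50, had log2 changes of -0.26 at passage 6 and -0.23 at passage 1 (adjusted p = 0.0331 and 0.0168, limma; chosen after its values were seen).

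Many repair genes are transcribed most strongly in dividing cells, so cell cycle lists were set beside them. Of 26 S-phase genes none was called at passage 1 by limma (2 with an unadjusted p under 0.05), with a median log2 change of -0.01. Without experimental library 3 there were 4 called higher, with a median of 0.07, and with equal totals or median-of-ratios scaling 1 higher. With array weights or without experimental library 2 there was 1 called lower. At passage 6, 2 rose (the replicative helicase genes Mcm2 and Mcm6, 7.69% of the list against 8.98% of all genes). There 1 fell (the primase gene Prim1, 3.85% against 10.8%). None was called without control 1, 2 or 3 or with the replicate block, and 3 were higher and 5 lower without experimental library 1. Of 20 G2 and M-phase genes, 10 rose and none fell at passage 1, led by the cyclin gene Ccnb1 at 97.8 ± 8.56 FPKM in experimental and 70.5 ± 1.42 FPKM in control libraries (log2 change 0.46, limma adjusted p = 0.00241). Of all genes 11.5% were called higher there. Without control 1 and experimental library 4, 1 of the 20 was called (Ccnb1, adjusted p = 0.0452, limma), and with the replicate block 3. At passage 6 none rose and 3 fell (Aurkb, Birc5 and Cdk1, 15.0% of the list against 10.8% of all genes), and none was called without control 1, 2 or 3. For 9 of the 20 (45.0%) the change differed between the passages, all lower, against 6.27% of all genes lower and 8.46% higher. It did so for 5 when any 1 control of either passage or experimental library 2 of passage 6 was left out. By summed FPKM the repair genes lay below and the mitotic genes above the controls in every experimental library of passage 1. Within the experimental libraries of passage 1 both repair lists and both cell cycle lists had the same order of summed FPKM. Library 2 was highest, then 1, 4 and 3. The list of p53-induced genes, described next, had the reverse order. Its sums were 210.5, 198.7, 227.3 and 225.9 FPKM in experimental libraries 1 to 4, against 204 to 212 FPKM in controls. S-phase sums were 803, 865, 639 and 730.3 FPKM in experimental libraries 1 to 4, against 741 to 755 FPKM in controls. Cell cycle genes moved with the repair genes among these libraries, and their part in the result was not tested.

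Genes induced by p53, the transcription factor that Atm and Chek2 activate after damage, changed in both directions. At passage 1, 13 of 16 listed genes were tested, 2 rose (Mdm2 and Btg2) and 1 fell (Ccng1). Mdm2, the ubiquitin ligase of p53, was at 27.0 ± 1.37 FPKM in experimental and 23.2 ± 0.885 FPKM in control libraries (mean ± SD, n = 4 and 3). At passage 6, 12 were tested, 2 rose (Zmat3 and Aen) and 1 fell (Sesn1). These are 23.1% and 25.0% of the tested genes, against 30.4% and 19.8% of all genes. Without control 1 and experimental library 4, Ccng1 was the 1 call left at passage 1 (adjusted p = 0.0434, limma). At passage 6 no gene was called higher without control 1, 2 or 3, and 3 were higher and 1 lower without experimental libraries 2 and 3. The change of Mdm2 differed between the passages by -0.38 and that of Ccng1 by 0.37 on the log2 scale (adjusted p = 0.0114 and 0.0248, limma), and the second of these calls ended without experimental libraries 2 and 3 of passage 6 (0.163).

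Marker sums of other tissues differed between libraries. Sums over the 20 colon epithelium markers were 204, 184, 8.04 and 87.8 FPKM in experimental libraries, against 491, 215 and 239 FPKM in controls at passage 1, and 116, 7.90 and 8.59 FPKM in experimental libraries, against 121, 231 and 265 FPKM in controls at passage 6. None of the 19 tested at passage 1 was called by limma (4 with an unadjusted p under 0.05). At passage 6, 10 of 17 were called lower (58.8%, against 10.8% of all genes), and none was called without control 2 or 3 or without experimental library 2 or 3. Mucin 2 (Muc2) and Epcam were listed at 0 in experimental library 3 of passage 1. Sums over the 13 cartilage markers were 31.8, 33.1, 35.5 and 8.68 FPKM in experimental libraries, against 7.21, 49.2 and 47.8 FPKM in controls at passage 1, and 17.9 to 20.2 FPKM in experimental libraries, against 35.3 to 59.6 FPKM in controls at passage 6. Matn3 made up most of the experimental sums of passage 6 and was not called. It had 13.4 FPKM in experimental and 11.7 FPKM in control libraries (means, log2 change 0.18). Limma called 6 of the 7 cartilage markers tested at passage 6 lower (85.7%, against 10.8% of all genes). Among them, Col2a1 had 0.179 to 0.325 FPKM in experimental libraries, against 11.8 to 24.9 FPKM in controls. Of 12 liver and 8 myelin markers, the sums in experimental libraries 2 and 3 of passage 6 were 149.8 and 124 FPKM (liver) and 35.4 and 24.7 FPKM (myelin). The other 11 libraries did not exceed 1.08 FPKM for liver and 2.47 FPKM for myelin, and in them the liver gene Alb (albumin) was listed at 0. The colon sum was lower in every experimental library than in every control at both passages, and the cartilage sum at passage 6. Their part in the changes of the repair genes was not tested beyond the values given without those libraries. The fit without experimental libraries 2 and 3 of passage 6 keeps library 1, where Col2a1 had 0.179 FPKM. It therefore cannot address the cartilage difference.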

How the data were processed

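The authors deposited FPKM in 1 table per passage, for 34857 Ensembl genes in 13 libraries. The build mm10 and the tools HISAT2, StringTie, cutadapt, edgeR and DESeq2 are listed per the submitters' processing notes. Their versions, and how FPKM were scaled between libraries, are not given in the sources used here. Per the labels' protocols, RNA was poly(A)-selected and the libraries were stranded.

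One gene with an empty cell was left out. Identifiers of 34730 genes matched a symbol in the GRCm38 annotation, all 41 repair genes among them. Values were tested as log2(FPKM + 1) with limma 3.58.1 (R 4.3.3, intensity trend, two-sided, Benjamini-Hochberg over all genes tested, threshold 0.05), separately per passage, on genes that reached 1 FPKM in 3 or more of its libraries. The difference between the passages was a contrast over all 13 libraries. Fold changes include the added 1 FPKM, which understates low genes. The number of reads is unknown. FPKM keep only relative depth: low values placed the libraries between 0.951 and 1.34 times the depth of control library 1 of passage 1. The fit was tested on simulated data. Tables and figures used Python 3.11.15, pandas 2.3.3, numpy 2.4.6, scipy 1.17.1 and matplotlib 3.10.9.

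The genes and the other lists were chosen with earlier results of these data known. All 41 genes are accounted for. Values per library were given for the 8 called genes with the smallest adjusted p at each passage and always for Atm, Atr, Prkdc, Brca1, Brca2, Parp1 and Trp53bp1. Of the other repair genes, 4 called genes per passage and direction were named by adjusted p, and for the difference between passages the 3 genes with the smallest p. Genes of the cell cycle and p53 lists, and further values per library, were chosen after their values were seen.

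Alternatives were scalings (quantile normalization, median ratios, equal totals), pseudocounts of 0.1 and 5, a filter at 5 FPKM or none, limma with array weights, robust or without trend, a joint fit of both passages, the replicate number as a block, and leaving out each library or the pairs of libraries that stood apart.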

Additional observations from a re-analysis of the deposited data

Results flagged for a closer look

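Brca2 in experimental library 2 of passage 1 had 1.92 FPKM, while the other 3 libraries of the group lay between 1.71 and 1.72 FPKM, which puts 1 library far from the others. It was the single such case among 42 groups of 4 libraries examined, where chance gives about 1 in 20, and it touches no call.

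For 6 genes of the longer repair list the change differed between the passages by limma's contrast. Topbp1, Wrn and Neil3 had differences (passage 6 minus passage 1) of -0.29, -0.36 and -0.39 on the log2 scale (adjusted p = 0.0284, 0.0259 and 0.0418). Each fell at passage 6 and had a log2 change close to 0 or above it, and not called, at passage 1. Swsap1, Faap100 and Polb had differences of 0.44, 0.50 and 0.25 (adjusted p = 0.0495, 0.0155 and 0.0442). Each fell at passage 1 (log2 change -0.37, -0.38 and -0.27) and was not called at passage 6 (0.06, 0.13 and -0.02). The call of Faap100 held whichever single library was left out (adjusted p = 0.0111 to 0.0448, limma), and the others depended on single libraries. Counting Faap100, 1 or 2 of the genes tested were called without any 1 control of either passage. Without experimental library 2 of passage 6 there were 2, all higher, and with the replicate block none. Without experimental libraries 2 and 3 of passage 6 the calls of Topbp1, Wrn and Neil3 ended (adjusted p = 0.0783, 0.0587 and 0.157, limma), as did those of Swsap1 and Faap100 (0.349 and 0.0831). The 6 genes are 6.00% of the 100 tested, against 14.7% of all genes.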

How the results depend on the processing

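The read depth is unknown, and 20 of the 41 genes averaged under 5 FPKM. The number of called genes moved with the settings, while the median change stayed below 0 at both passages under every alternative. The deposited FPKM gave 8 calls at passage 1 and 7 at passage 6, and none in limma for the contrast of the passages (4 with an unadjusted p under 0.05). At passage 1 the count was 4 without a filter, 3 with a minimum of 5 FPKM (22 genes tested), 5 with median-of-ratios scaling, 16 with array weights and 1 (Rad50) without control 1 and experimental library 4. Leaving out single libraries gave 3 to 15 calls, with 3, 4 and 4 without controls 1, 2 and 3 and 15 without experimental library 2. At passage 6 it was 1 without a filter, 4 with a minimum of 5 FPKM (21 genes tested), 3 with equal totals and 4 without experimental libraries 2 and 3 (Fanci, Mdc1, Parp2 and Rad50), a fit in which the lone experimental library is assumed to vary like the controls. Leaving out single libraries gave 1 to 12 calls, with 1 (Parp2) without any 1 control or experimental library 2, 4 without experimental library 3 and 12 without experimental library 1. For the difference, leaving out single libraries gave 0 to 1 calls, and 1 without experimental libraries 2 and 3 of passage 6. The cause of these shifts was not tested, except that fewer samples or genes enter some of them. The median over the 41 genes at passage 6 was -0.05 with a pseudocount of 5 and -0.06 with quantile normalization.

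Replicate numbers did not pair the libraries: deviations of same-numbered experimental and control libraries correlated at 0.0962, -0.206 and 0.206 at passage 1 and at -0.0636, -0.0532 and 0.0185 at passage 6. With the replicate block, which leaves out experimental library 4 of passage 1, the calls numbered 3 at passage 1 (Chek2, Rad50 and Rad51c), 2 at passage 6 (Mdc1 and Parp2) and 0 in the contrast. Without a filter the calls were Ercc5, Fanci, Rad50 and Rad51c at passage 1 and Parp2 at passage 6.

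Signs flipped only for small changes that were not called. At passage 1 Atr was at 0.00199 with median-of-ratios scaling and 0.0306 with quantile normalization, Brca2 at 0.00303 with quantile normalization, and Trp53bp1 at 0.0237, 0.0313 and 0.0263 under equal totals, median ratios and quantiles. At passage 6 quantile normalization put Atm at 0.0146, Brca2 at 0.0383 and Trp53bp1 at 0.0101. Array weights put Brca2 at 0.0380 and Trp53bp1 at 0.0291, and equal totals and median-of-ratios scaling put Trp53bp1 at 0.0149 and 0.0180. Leaving out single libraries of passage 6 gave -0.104 to 0.00444 for Atm, -0.144 to 0.0340 for Brca2 and -0.0625 to 0.0475 for Trp53bp1.

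Of the counts of calls, 37 stayed within 1.5 times the count with deposited values and 27 did not. The other comparisons with an alternative covered medians, the count of the longer repair list, the genes always shown and the genes called with deposited values. Of these, 440 kept direction and side of the threshold, 98 lost the call, 1 gained it and 17 changed sign, and 2 medians moved. Calls gained by further genes of the 41 are not in these counts. With array weights, Apex1, Chek1, Lig4, Mdc1, Msh6, Parp2, Ung and Xrcc2 were also called lower at passage 1. At passage 6 array weights added Rad51c and Xrcc6 as lower and Nbn as higher. Rad50 at passage 1 and Parp2 at passage 6 kept their calls in every alternative run on them, 20 and 19.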
